A study of Mus musculus with 94 samples.

Results

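The genes described here are Egr1, Egr2, Egr3, Ier2, Ier3, Ier5, Nr4a1, Dusp1, Zfp36 and Klf10, chosen by symbol from the rows of the deposited count tables, 10 of the 24767 symbols that the 4 tables hold together. All 10 were present in each table and passed the filter on low counts in each. Immediate early genes are transcribed quickly after a stimulus such as a growth factor, without the need for new protein. Transcription factors that are already in the cell carry the signal, chiefly serum response factor with its ETS-family partners at CArG boxes and CREB at cAMP response elements, downstream of MAP kinases such as ERK. Their transcripts are short-lived, so their level follows recent transcription closely, and in embryonic stem cells FGF signalling through ERK is a known input. Egr1, Egr2 and Egr3 encode zinc finger transcription factors that bind GC-rich sites. Nr4a1 encodes an orphan nuclear receptor, and Klf10 a Krüppel-like factor induced by TGF-beta. Dusp1 encodes a phosphatase that inactivates MAP kinases, and Zfp36 a protein that binds AU-rich elements and promotes mRNA decay. Ier3 is a stress-responsive gene with effects on cell survival, and Ier2 and Ier5 encode related nuclear proteins. The 10 genes lie on 8 chromosomes, with Ier3 and Dusp1 both on chromosome 17 and Nr4a1 and Klf10 both on chromosome 15.

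All libraries came from mouse embryonic stem cells of the CAST/Ei x 129/Sv/Jae hybrid background that carry a Tsix-stop allele, controls included. RAD21, a core subunit of the cohesin ring that extrudes chromatin loops, or WAPL, the factor that releases cohesin from chromatin, was fused to an FKBP degron. The small molecule dTAG-13 at 500 nM triggers degradation of the fusion protein, and the same volume of DMSO was the control. Stem cells were kept on irradiated embryonic fibroblast feeders and differentiated as embryoid bodies, which were plated on gelatin from day 4. For WAPL, RNA was taken at day 7 after treatment over days 4 to 7 (3 DMSO and 3 dTAG-13 libraries, of which 2 each are of clone H7 and 1 each of clone H2), or at day 10 after days 7 to 10 (clone H7, 2 and 2). For RAD21, treatment of clones C4 and G9 lasted 8 h, and poly(A) RNA was taken at day 10 and nascent RNA by PRO-seq at day 7 (1 library per clone and treatment). PRO-seq maps engaged RNA polymerases and so reads transcription itself rather than accumulated RNA. Each line is a single clone, and nothing in the labels says that replicates came from separate cultures, so the p-values measure the spread between these libraries only.

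Total counts per library ran from 8413212 to 35388461 (WAPL days 4 to 7), 12076585 to 26956675 (WAPL days 7 to 10), 13802076 to 33808921 (RAD21 RNA) and 14269544.5 to 34335988.5 (RAD21 PRO-seq). Levels below are CPM, counts put on a common library size with each library's total and TMM factor. CPM are not per gene length, so levels are compared between libraries and not between genes. Differences are log2 of dTAG-13 over DMSO from edgeR's quasi-likelihood test, called at a Benjamini-Hochberg adjusted p under 0.05 over all genes tested. A degron acts on the protein, whose level these tables do not hold, so transcripts of the tagged genes do not check the labels. The Wapl transcript differed by log2 0.02 (edgeR adjusted p = 0.939) and -0.01 (adjusted p = 0.999) in the WAPL comparisons, and Rad21 by 0.14 (adjusted p = 0.118) and 0.16 (adjusted p = 0.152) in RNA and PRO-seq of the RAD21 lines. In bulk samples fewer cells of a type and less RNA per cell cannot be told apart.

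**Figure D1:**
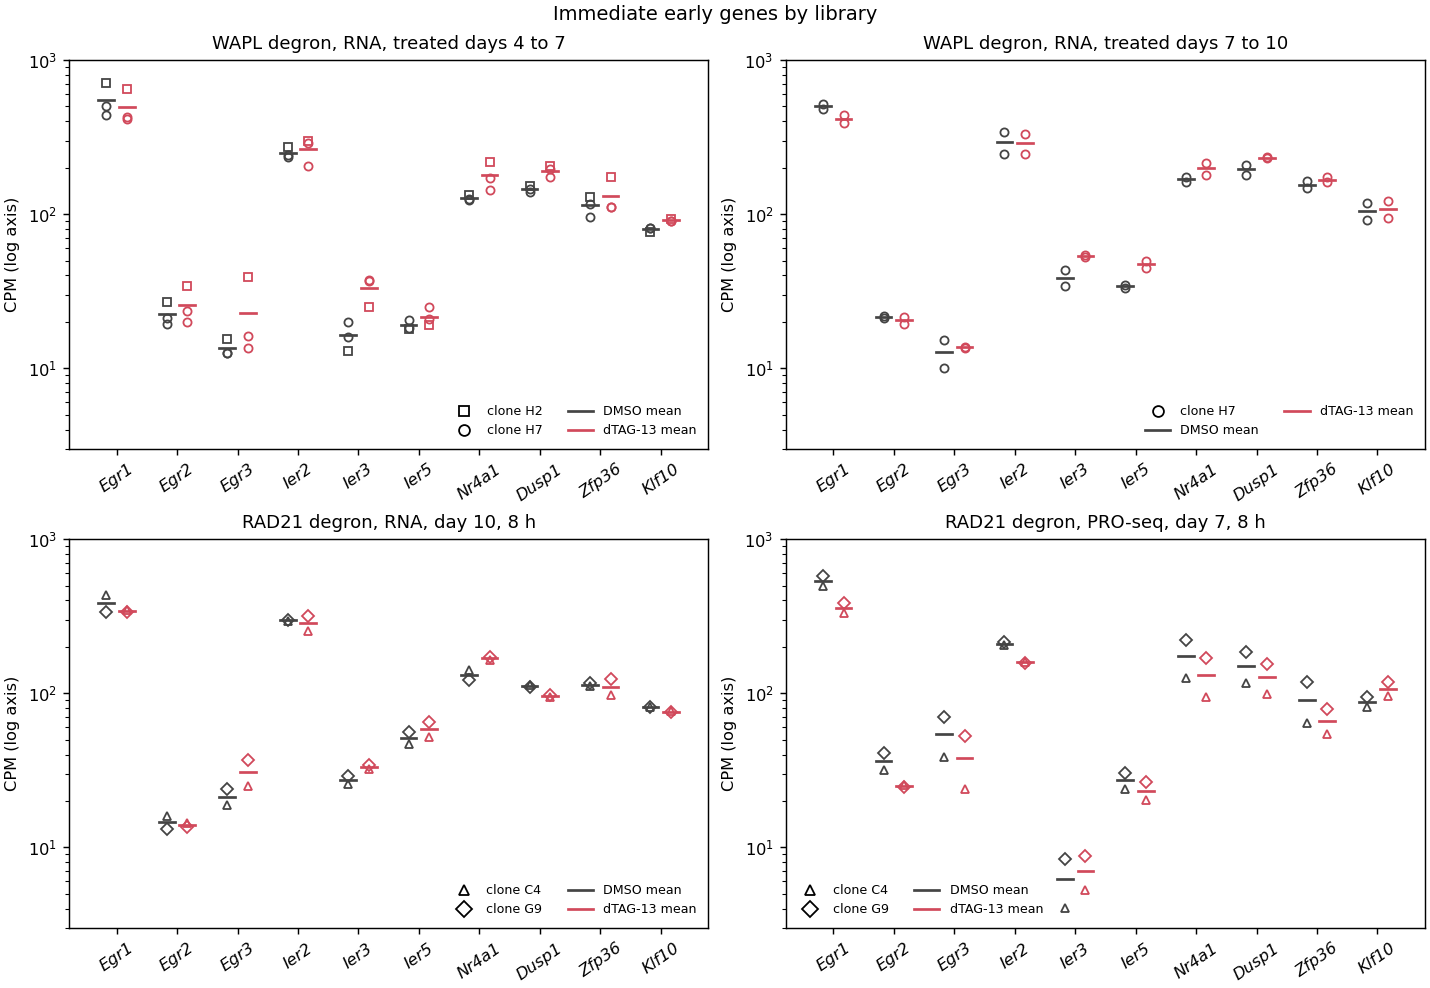
Level of each gene in each library, in CPM on a log axis, for the 4 comparisons. Open symbols are libraries (shape gives the clone), short lines are group means, grey is DMSO and red is dTAG-13. In PRO-seq both dTAG-13 libraries of Egr1, Egr2 and Ier2 lie below both DMSO libraries, and in the WAPL days 4 to 7 set all 3 dTAG-13 libraries of Ier3 lie above all 3 DMSO libraries. Of all genes tested 15.9% were so placed in PRO-seq and 16.4% in the WAPL set.

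Nascent transcription of most of these genes was lower 8 h after RAD21 degradation began. In PRO-seq at day 7, 7 of the 10 genes fell (Egr1, Egr2, Egr3, Ier2, Nr4a1, Dusp1 and Zfp36) and Klf10 rose. Over all 16496 genes tested 4.66% were called lower and 5.9% higher. The median of the 10 genes was log2 -0.40, against -0.0029 over all genes tested. Without overlap of the groups 3 of the 10 genes were lower and 1 higher, against 15.9% and 14.5% of all genes tested. In each of the clones 2 of the 10 genes had more PRO-seq signal with dTAG-13 and 8 had less, where 49.2% (C4) and 49.8% (G9) of all genes had more. Levels are relative to each library, so a change shared by all genes would not show.

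Among the zinc finger factors, Egr1 gave 497 and 578 CPM under DMSO in clones C4 and G9, and 334 and 384 CPM under dTAG-13. The groups did not overlap, and the fall was log2 -0.58 (SE 0.0611, edgeR adjusted p = 2.49e-08). Egr2, a regulator of hindbrain and myelin development, had 31.7 and 41.2 CPM under DMSO and 25.3 and 24.7 CPM under dTAG-13 (log2 -0.52, SE 0.121, edgeR adjusted p = 0.00389). Both treated libraries were again below both controls. Egr3 had 38.3 CPM in C4 and 69.8 CPM in G9 under DMSO, and 23.8 and 52.6 CPM with dTAG-13. Here the clones stood apart, so that the groups overlapped although each clone fell, with log2 -0.69 in C4 and -0.41 in G9 (fitted -0.55, SE 0.102, edgeR adjusted p = 3.42e-04).

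Ier2 had the tightest replicates of the genes that fell, at 206 and 214 CPM under DMSO and 160 and 157 CPM under dTAG-13 (log2 -0.40, SE 0.0677, edgeR adjusted p = 8.58e-05). For the nuclear receptor gene Nr4a1 the values were 126 CPM (C4) and 220 CPM (G9) under DMSO, and 94.4 and 169 CPM with dTAG-13. The clones differed more than the treatments did, and within clones the ratios were close, log2 -0.42 and -0.39 (fitted -0.40, SE 0.0695, edgeR adjusted p = 1.28e-04). The feedback genes followed the same direction. Zfp36 went from 64.4 to 54 CPM in C4 and from 118 to 79 CPM in G9 (fitted log2 -0.41, edgeR adjusted p = 0.00183). Dusp1 went from 116 to 99.3 CPM in C4 and from 185 to 155 CPM in G9 (fitted log2 -0.24, edgeR adjusted p = 0.0277).

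Klf10 moved the other way. It had 81.9 and 94.1 CPM under DMSO and 95.4 and 118 CPM under dTAG-13 (log2 0.27, SE 0.0787, edgeR adjusted p = 0.0225), with no overlap of the groups. Ier5 gave 24 and 30.5 CPM under DMSO and 20.3 and 26.4 CPM with dTAG-13, and did not pass (log2 -0.23, 95% interval -0.48 to 0.03). Ier3 had the fewest counts, 118.5 to 141.5 per library, and did not pass (log2 0.22, 95% interval -0.21 to 0.65).

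The interval of each fit rests on 1 residual degree of freedom per gene and on a spread borrowed across genes, and the tools differed. DESeq2 called 4 of the 8 (Egr1, Egr3, Ier2 and Nr4a1), with adjusted p = 0.0609 for Zfp36, 0.102 for Egr2, 0.232 for Klf10 and 0.328 for Dusp1, and without the clone term or with any 1 library left out (which also drops the clone term) no gene passed.

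**Figure D2:**
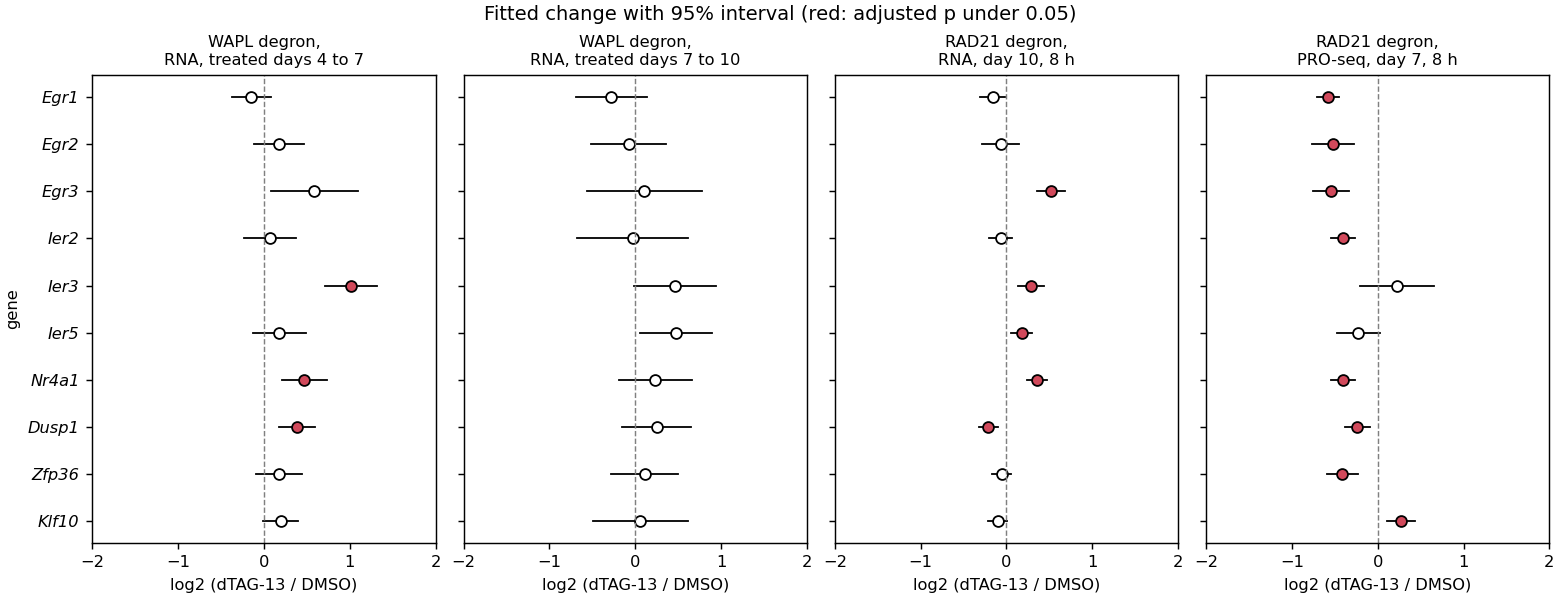
Fitted log2 difference of dTAG-13 over DMSO for each gene, with its 95% interval, in the 4 comparisons. Red points have an edgeR adjusted p under 0.05. In the PRO-seq panel 7 red points lie left of 0 and Klf10 lies right of it, whereas in the WAPL days 7 to 10 panel no point is red.

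Promoters are shown for the genes that fell in PRO-seq, and for Ier3 beside them, where they have an entry in the RefSeq promoter table (build GRCm38.p6), to display the signal-response motifs upstream of them. Of the 10 genes 6 had an entry, and Egr1, Egr3, Ier2 and Klf10 did not. The 250 bases before each start were searched on both strands for the CArG box (serum response factor), the cAMP response element TGACGTCA and its core TGACG, the Egr site GCGNGGGCG, the ETS core CCGGAA, the AP-1 site TGANTCA, the TATA box TATAAA and the GC box GGGCGG. The core lies within the full cAMP response element, and the GC box can overlap the Egr site. Each line below gives 1 promoter, 5′ to 3′ on the gene's strand and ending at the base before the start. Capitals mark CArG boxes, cAMP response element cores and full elements, Egr sites and ETS cores. Egr2 has 5 listed starts, of which 1 is printed. The window of the start farthest upstream holds none of the motifs marked by capitals, and the other 4 windows hold a CArG box.
Egr2, chr10:67537619-67537868, strand plus: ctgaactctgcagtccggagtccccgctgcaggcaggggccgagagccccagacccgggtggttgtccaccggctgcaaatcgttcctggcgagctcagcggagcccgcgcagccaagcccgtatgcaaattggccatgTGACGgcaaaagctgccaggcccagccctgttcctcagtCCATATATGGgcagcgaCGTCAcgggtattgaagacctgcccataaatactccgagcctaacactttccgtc
Zfp36, chr7:28379229-28379478, strand minus: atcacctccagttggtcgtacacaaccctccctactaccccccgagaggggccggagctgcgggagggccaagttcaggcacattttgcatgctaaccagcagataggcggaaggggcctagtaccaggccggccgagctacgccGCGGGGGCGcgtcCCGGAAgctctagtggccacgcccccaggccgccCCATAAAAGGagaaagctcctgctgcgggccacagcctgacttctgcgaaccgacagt
Nr4a1, chr15:101266596-101266845, strand plus: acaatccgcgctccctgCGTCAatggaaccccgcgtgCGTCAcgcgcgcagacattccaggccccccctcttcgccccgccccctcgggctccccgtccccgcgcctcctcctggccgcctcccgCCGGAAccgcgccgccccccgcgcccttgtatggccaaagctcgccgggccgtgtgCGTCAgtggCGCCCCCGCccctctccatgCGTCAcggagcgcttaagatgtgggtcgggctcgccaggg
Dusp1, chr17:26508473-26508722, strand minus: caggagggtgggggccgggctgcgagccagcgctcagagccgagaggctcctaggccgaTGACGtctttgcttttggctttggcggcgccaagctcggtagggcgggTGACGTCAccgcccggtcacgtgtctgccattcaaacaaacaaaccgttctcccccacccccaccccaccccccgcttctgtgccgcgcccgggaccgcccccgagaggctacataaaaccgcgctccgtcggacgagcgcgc
Ier3, chr17:35821463-35821712, strand plus: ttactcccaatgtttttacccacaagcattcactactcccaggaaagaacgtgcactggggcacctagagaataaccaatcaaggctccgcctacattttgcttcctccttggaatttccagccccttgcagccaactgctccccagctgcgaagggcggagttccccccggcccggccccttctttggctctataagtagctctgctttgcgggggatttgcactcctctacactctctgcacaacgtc
Egr2 carries a CArG box 62 bases before this start, flanked by TGACG cores at 106 and 50 bases, and Zfp36 carries 1 at 48 bases, next to an ETS core and an Egr site. Over 32851 promoters of this length 1.47% hold a CArG box. Nr4a1 has 4 TGACG cores, where 17.8% of promoters hold 1 or more, with an Egr site (4.7%) and an ETS core (12%). Dusp1 has the full cAMP response element, held by 1.55% of promoters, 135 bases before its start, and a separate core at 186 bases. Ier3 and Ier5 have none of these 4 kinds of motif in the window, and no test related motifs to the PRO-seq values. All 6 have a GC box (32.7% of promoters) at 1 start at least, and none has the TATAAA or AP-1 letters (12.4% and 6.75%). These are matches of letters, and the tables hold no binding data with which to test them.

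In poly(A) RNA at day 10 the RAD21 lines gave another picture. After 8 h of dTAG-13, Egr3, Nr4a1, Ier3 and Ier5 rose and Dusp1 fell, which is 4 and 1 of the 10 genes. Over the 14470 genes tested 9.83% were called higher and 8.89% lower. The median of the 10 genes was log2 -0.06, against 0.01 over all genes. Without overlap of the groups 3 of the 10 genes were higher and 2 lower, against 15.6% and 15.3% of all genes tested.

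Egr3 had 18.9 and 23.7 CPM under DMSO in clones C4 and G9, and 25 and 36.6 CPM with dTAG-13. Both treated libraries lay above both controls (log2 0.52, SE 0.0842, edgeR adjusted p = 2.75e-08). Nr4a1 gave 141 and 122 CPM under DMSO and 164 and 173 CPM under dTAG-13 (log2 0.36, SE 0.0586, edgeR adjusted p = 3.77e-08), again without overlap. Ier3 had 25.8 and 28.9 CPM under DMSO and 32.3 and 34.2 CPM with dTAG-13 (log2 0.29, SE 0.0776, edgeR adjusted p = 0.00255). Its values did not overlap either. Ier5, by contrast, overlapped between groups, at 46.9 and 56.3 CPM against 51.9 and 65 CPM (log2 0.18, SE 0.0612, edgeR adjusted p = 0.0254).

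Dusp1 was the gene that fell, from 113 and 109 CPM to 94.6 and 97.3 CPM (log2 -0.21, SE 0.0568, edgeR adjusted p = 0.00242). Egr1 went from 434 to 349 CPM in C4 and from 338 to 339 CPM in G9, with 1 library per clone and treatment and no test of the clones' difference (fitted log2 -0.16, 95% interval -0.30 to -0.01, edgeR adjusted p = 0.123). Ier2 and Zfp36 had opposite signs in the clones. Ier2 went from 294 to 253 CPM in C4 and from 300 to 319 CPM in G9, and Zfp36 from 111 to 97.1 CPM and from 116 to 123 CPM. Egr2 stayed between 13.2 and 16.1 CPM in the 4 libraries, and Klf10 between 75.1 and 81.9 CPM with both treated libraries lower (log2 -0.10, edgeR adjusted p = 0.224).

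Here too the fit had 1 residual degree of freedom. The weight of the spread borrowed across genes (median prior degrees of freedom) was infinite, against 29.5 in PRO-seq. The SEs and p-values of this comparison thus rest on that borrowed spread and not on each gene's own replicates. DESeq2 called Egr3 and Nr4a1 only, while Ier3, Ier5 and Dusp1 had DESeq2 adjusted p = 0.56, 0.835 and 0.501. Scaling by library totals instead of TMM took Ier3 (adjusted p = 0.0605) and Ier5 (adjusted p = 0.236) below the threshold, added Egr1 as lower (log2 -0.21, adjusted p = 0.034), and changed the split over all genes from 1422 higher and 1286 lower to 710 and 1303. No gene of the 10 passed without the clone term or with any 1 library left out.

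**Figure D3:**
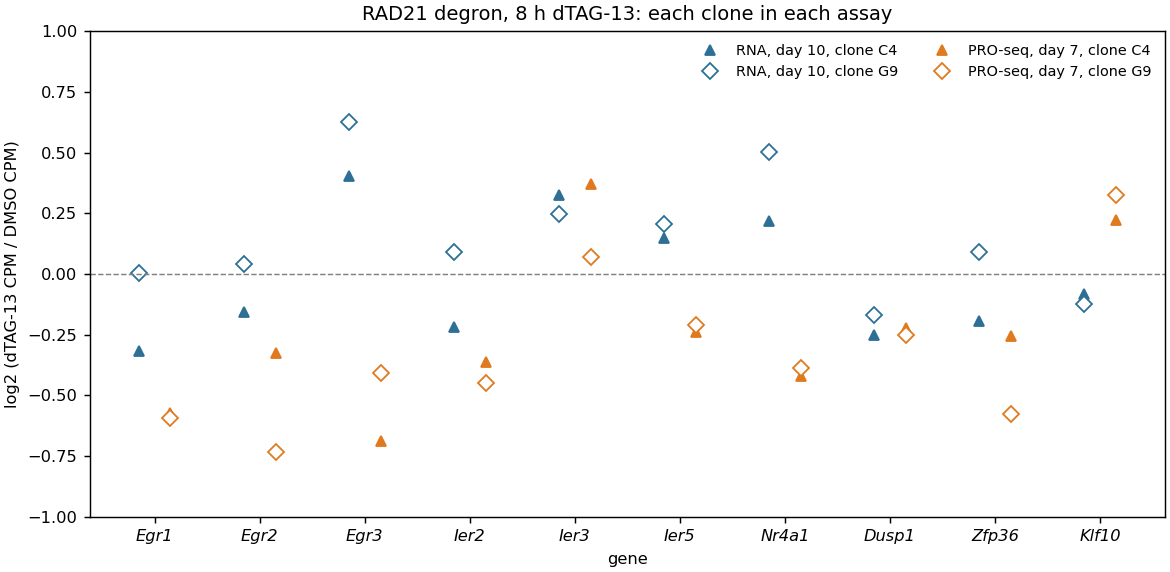
Log2 ratio of dTAG-13 to DMSO CPM for each gene in each RAD21 clone, for RNA at day 10 (blue) and PRO-seq at day 7 (orange); filled triangles are clone C4 and open diamonds clone G9. For Egr3, Ier5 and Nr4a1 both blue points lie above 0 and both orange points below it.

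The difference between the RAD21 assays was tested directly in a model over the 8 libraries, with clone terms for each assay. Egr3 and Nr4a1 passed, both with a lower response in PRO-seq than in RNA. For Egr3 the responses differed by log2 -1.05 (SE 0.135, edgeR adjusted p = 0.00108), and for Nr4a1 by -0.75 (SE 0.0976, edgeR adjusted p = 0.00112). Over the 13837 genes tested 1.08% were lower and 1.06% higher in this contrast, and the median of the 10 genes was -0.37 against -0.0023. Egr1 (log2 -0.41, edgeR adjusted p = 0.0546) and Klf10 (log2 0.39, edgeR adjusted p = 0.0507) did not pass. For Dusp1 the difference was -0.01, with a 95% interval of -0.20 to 0.18. The assays also differed in day, 7 against 10, so nascent against accumulated RNA and the earlier against the later day cannot be told apart here. The fits given next that keep the clone terms were added after the data were seen. In each of them the response in the assay that lost a library rests on 1 clone. With each library left out in turn and the clone terms kept, Nr4a1 passed in 8 of 8 fits (edgeR adjusted p from 4.22e-04 to 0.042) and Egr3 in 6 of 8 (up to 0.0612; lost without the DMSO or the dTAG-13 RNA library of clone G9), while with the clone terms of the 2 assays merged no gene passed.

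Loss of WAPL over days 4 to 7 came with higher RNA of 3 of the 10 genes, Ier3, Nr4a1 and Dusp1, and with no called fall. Over the 14544 genes tested 9.46% were called higher and 5.73% lower. The median of the 10 genes was log2 0.19, against -0.01 over all genes tested, and 9 of 10 had a positive sign.

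Ier3 had the largest difference of the 10. Under DMSO it stood at 16 and 20.1 CPM in clone H7 and 13 CPM in clone H2, and with dTAG-13 at 36.6, 37.6 and 25 CPM. Every treated library exceeded every control, the pairs gave log2 1.19, 0.90 and 0.95, and the fitted rise was 1.02 (SE 0.13, edgeR adjusted p = 0.00357). Nr4a1 had 123, 125 and 133 CPM under DMSO and 173, 144 and 218 CPM with dTAG-13. The controls were tight and the treated libraries spread (log2 0.47, SE 0.116, edgeR adjusted p = 0.0308). For Dusp1 the DMSO values were 140, 145 and 153 CPM and the dTAG-13 values 196, 174 and 204 CPM, with no overlap (log2 0.39, SE 0.0919, edgeR adjusted p = 0.0269).

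Egr3 rested on the clone H2 pair. It had 12.6, 12.5 and 15.6 CPM under DMSO and 13.5, 16.1 and 39.2 CPM with dTAG-13, where the last value is clone H2 (log2 0.59, 95% interval 0.08 to 1.09, edgeR adjusted p = 0.108; log2 0.24 without either H2 library). Klf10 shifted by little but without overlap, from 81.3, 81.5 and 76.2 CPM to 90, 90.8 and 93.2 CPM (log2 0.20, edgeR adjusted p = 0.172). Such separation was seen for 4 of the 10 genes upward and for none downward, against 16.4% and 14.6% of all genes tested. Egr1 was lower with dTAG-13 in each of the 3 pairs, by log2 -0.08, -0.22 and -0.13, but not past the test (fitted -0.15, 95% interval -0.37 to 0.08). Its controls ranged from 437 to 713 CPM, with clone H2 highest. Egr2, Ier2, Ier5 and Zfp36 lay between log2 0.07 and 0.18 with adjusted p from 0.337 to 0.757.

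The rise of Ier3 held with any 1 library left out (edgeR adjusted p from 0.00221 to 0.0374), whereas Nr4a1 and Dusp1 each lost their call without any 1 DMSO library or without the treated H2 library, and in clone H7 alone (adjusted p = 0.249 and 0.188). With the replicate number as a block the same 3 genes of the 10 passed, while the count over all genes went from 2209 to 3993.

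Markers of other cell types moved in the same libraries. The summed level of 11 fibroblast and feeder markers was 363 to 650 CPM under DMSO and 970 to 1332 CPM with dTAG-13 over days 4 to 7 (7 of 10 tested higher, 1 lower), and that of 8 trophoblast and surface epithelium markers 364 to 600 CPM and 1057 to 1363 CPM (4 of 7 higher). The 7 pluripotency and epiblast markers went from 2552 to 3475 CPM down to 1657 to 2066 CPM (3 of 7 lower). The neural sum went from 322 to 392 CPM down to 218 to 268 CPM (2 of 6 tested higher, 1 lower). That of macrophages and other blood cells went from 19.7 to 22.9 CPM up to 27.4 to 35.6 CPM. The endoderm and endothelium sums overlapped between treatments. None of these markers was at 0 in every library. Over the libraries of days 4 to 7 the highest fibroblast and feeder markers were Tagln (199 to 656 CPM) and Acta2 (33.9 to 503 CPM). In the trophoblast and surface epithelium list they were Krt18 (225 to 808 CPM) and Krt8 (115 to 485 CPM). Postn (0.12 to 1.9 CPM), Lum (0 to 0.23 CPM) and Krt5 (0 to 0.56 CPM) were near the floor. The sums thus follow a few genes and do not by themselves name a cell type. In the RAD21 lines all 7 pluripotency markers were lower, in RNA (1513 to 1740 CPM, then 1124 to 1362 CPM) and in PRO-seq (776 to 855 CPM, then 413 to 538 CPM). In the same RNA libraries the fibroblast and feeder sum went from 1066 to 1074 CPM up to 1339 to 1423 CPM (4 of 10 tested higher, 3 lower), and that of 5 endothelial markers from 78.2 to 87.9 CPM down to 56.7 to 58 CPM (2 of 5 lower). Over days 7 to 10 of WAPL loss no marker passed in the fit without a replicate block, but no marker sum overlapped between treatments. Of all genes tested there, 17.3% were higher and 16.8% lower without overlap. The fibroblast and feeder sum was 944 to 1126 CPM under DMSO and 1418 to 1592 CPM with dTAG-13, and the trophoblast and surface epithelium sum 1573 to 1751 CPM and 2186 to 2592 CPM. The pluripotency sum was 1811 to 2429 CPM and 1164 to 1639 CPM. Lower sums were also seen for neural (272 to 298 CPM, then 210 CPM), endoderm (76.3 to 101 CPM, then 56.5 to 65 CPM) and endothelial markers (54.8 to 75.8 CPM, then 46.7 to 50.1 CPM). The sum of macrophages and other blood cells was higher (27.3 to 27.4 CPM, then 37.9 to 38.6 CPM). The part of these markers in the results on the immediate early genes was not tested.

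When WAPL was lost over days 7 to 10, none of the 10 genes passed edgeR's test, and neither did any of the 14110 genes tested (0% in either direction). Before adjustment 926 genes had p under 0.05, among them Ier5 of the 10, and DESeq2 called 44 genes and none of the 10. These fits held no replicate block. With the replicate number as a block, 5 of the 10 genes passed (4 higher, 1 lower), as did 5141 of all genes tested. The labels give these 2 pairs only a shared number, yet same-number libraries deviated together from the group means (r = 0.828). The calls in this window thus depend on the block, and the values below are from the edgeR fit without it. Ier5 gave 33.3 and 34.5 CPM under DMSO and 50 and 44.6 CPM with dTAG-13, with no overlap (log2 0.48, SE 0.164, edgeR adjusted p = 0.71). Ier3 had 34.1 and 43.3 CPM under DMSO and 52.7 and 54.1 CPM with dTAG-13 (log2 0.46, SE 0.187, edgeR adjusted p = 0.78). Egr1 was lower in both treated libraries, at 389 and 439 CPM against 485 and 519 CPM (log2 -0.28, 95% interval -0.69 to 0.14). Nr4a1 (0.23) and Dusp1 (0.25) had the sign they had over days 4 to 7. In all, 4 genes were higher and 1 lower without overlap, where 17.3% and 16.8% of all genes tested were.

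The windows were compared by the difference of their dTAG-13 responses over 10 libraries. No gene of the 14326 tested passed (0%), and 423 had an unadjusted p under 0.05. Ier3 was among these, with a smaller response in the later window (log2 difference -0.53, 95% interval -1.01 to -0.06, edgeR adjusted p = 1). For Dusp1 the difference was -0.12, with an interval of -0.46 to 0.22.

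The DMSO libraries of clone H7 were also compared between the 2 windows. Between day 7 and day 10 under DMSO, Ier3 went from 16.2 and 20.3 CPM to 33.5 and 42.7 CPM (log2 1.06, SE 0.213, edgeR adjusted p = 0.0734). Ier5 went from 20.9 and 18.3 CPM to 32.7 and 34 CPM (log2 0.77, SE 0.176, edgeR adjusted p = 0.0993). Neither passed, and none of the 10 genes did, while 1.27% of the 14143 genes tested were called higher and 0.127% lower. Before adjustment Ier3, Ier5, Nr4a1, Dusp1 and Zfp36 had p under 0.05, as did 15.7% of all genes tested (2227). DESeq2 called Ier3 (adjusted p = 0.00151) and Ier5 (adjusted p = 0.029) among 641 genes. Egr1 and Egr2 differed between the days by log2 0.06 (95% interval -0.30 to 0.42) and 0.04 (-0.38 to 0.46). Day 10 DMSO libraries come from another table and from cells in DMSO over days 7 to 10, so day, time in DMSO and table cannot be told apart. Leaving out a day 10 library brought 6 of the 10 genes past the threshold (without replicate 1) or 4 (without replicate 2), while the count over all genes went from 197 to 3101 and 1991.

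**Figure D4:**
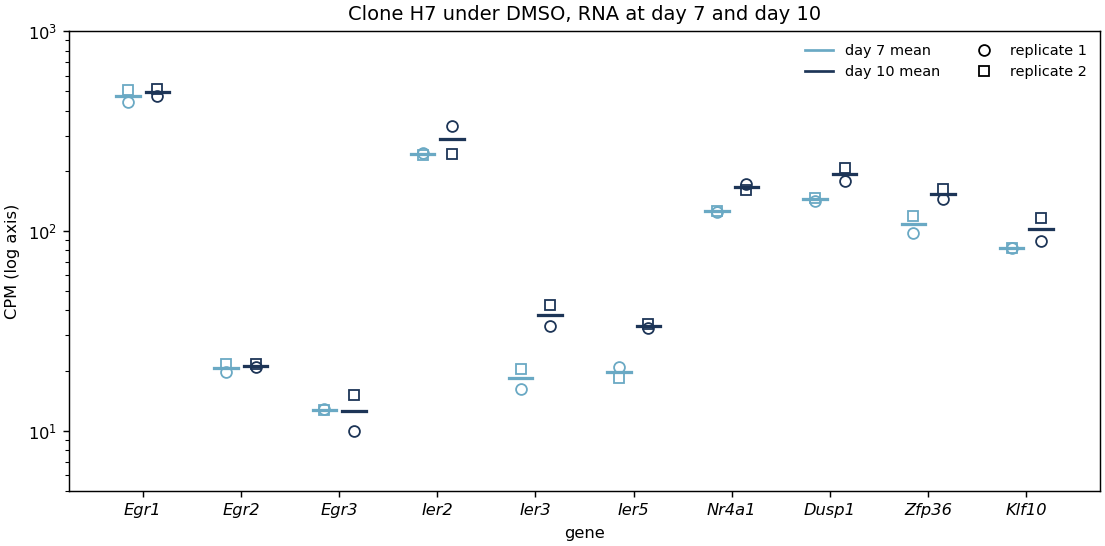
Level of each gene in clone H7 under DMSO at day 7 (light) and day 10 (dark), in CPM on a log axis; circles are replicate 1, squares replicate 2 and lines means of 2. Both day 10 values of Ier3 (33.5 and 42.7 CPM) and of Ier5 (32.7 and 34 CPM) lie above both day 7 values. The same holds for Nr4a1, Dusp1, Zfp36 and Klf10, and none of the 10 genes passed edgeR's test. The share of all genes so placed was not computed.

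Related genes were followed as 3 lists: 45 other immediate early genes, 8 AP-1 genes (Fos and Jun family and Atf3) and 23 genes of the ERK, SRF and CREB pathways with the Nab co-repressors of Egr proteins. In PRO-seq after RAD21 loss, 14 of the 45 fell and 3 rose (median log2 -0.14), and 4 of the 8 AP-1 genes fell and 1 rose (median -0.23), while of 21 pathway genes tested 2 rose and none fell. Over all genes tested 4.66% fell and 5.9% rose, so the rises among the 45 and among the pathway genes are near the background. DESeq2 left 6 falls among the 45 and none among the AP-1 genes. Dusp5, a phosphatase of ERK, had the smallest p, from 126 ± 32.7 to 64.4 ± 3.5 CPM (SD, n = 2), or log2 -0.93 (edgeR adjusted p = 3.44e-09). Sgk1, a serum- and glucocorticoid-induced kinase, followed with -0.84, and Irf1 and Zfp36l1 with -0.65 and -0.54. Junb fell by 0.34 and Fosl1, another AP-1 subunit gene, rose by 0.44. Of the pathway genes, the kinase gene Rps6ka3 rose by 0.44 and Elk3, an ETS partner of SRF, by 0.42.

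In RAD21 RNA 12 of the 45 rose and 19 fell (median log2 0.01), where 9.83% and 8.89% of all genes tested did. Sgk1 fell there as well, from 128 ± 1.63 to 51.9 ± 18.3 CPM (SD, n = 2; log2 -1.30), together with Phlda1 (-1.14), a gene induced by ERK signalling, and Ier5l (-0.93), a relative of Ier5. Maff, a small bZIP factor, rose by 0.86. Of the AP-1 genes 2 rose and 2 fell, and the risers were Fosl1 (1.20) and Atf3 (0.97). Nab2, a co-repressor of Egr proteins, rose by 0.49 and Srf by 0.36, among 3 pathway genes that rose and none that fell of 23. DESeq2 left 3 rises and 9 falls among the 45.

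**Figure D5:**
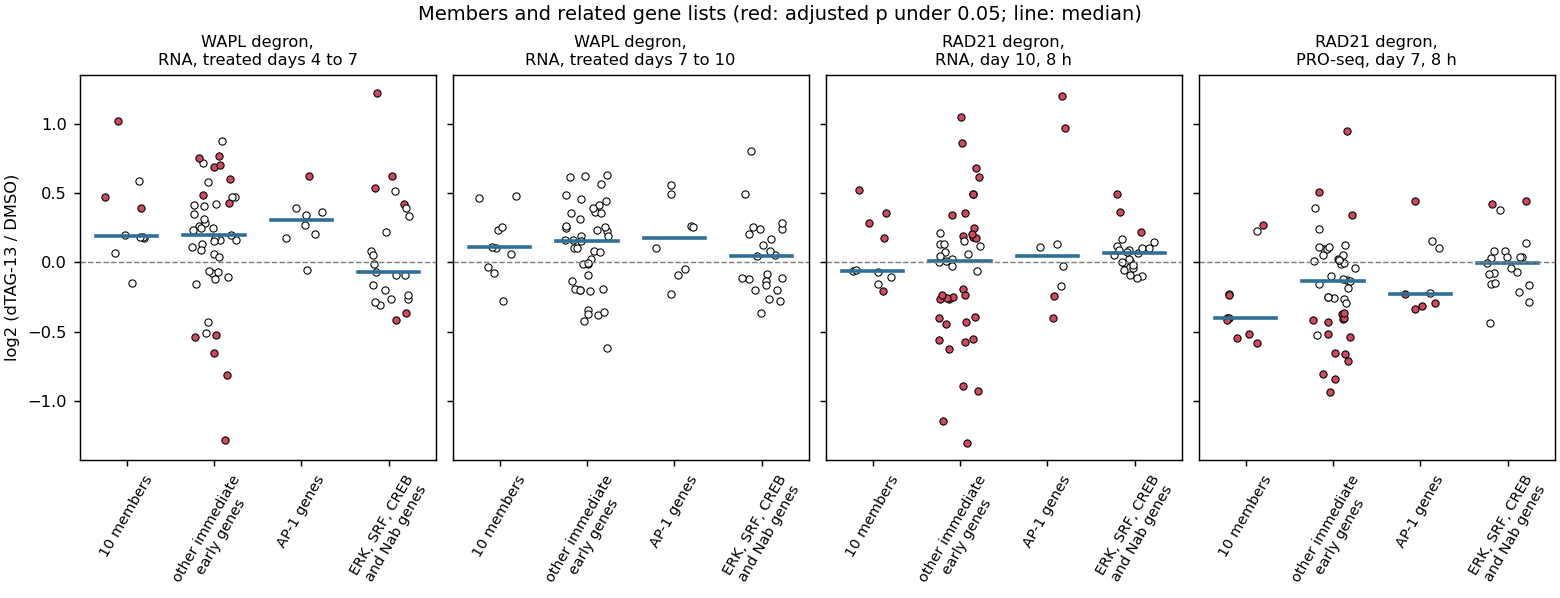
Fitted log2 difference of dTAG-13 over DMSO for the 10 genes and for the members of the 3 related lists, in the 4 comparisons. Each point is a gene, red points have an edgeR adjusted p under 0.05 and the blue line is the median; points are spread sideways for visibility only. In PRO-seq the medians of the 10 genes (-0.40), the other immediate early genes (-0.14) and the AP-1 genes (-0.23) lie below 0, and that of the pathway genes lies at -0.0037.

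With WAPL lost over days 4 to 7, 7 of the 45 rose and 5 fell (median log2 0.20), where 9.46% and 5.73% of all genes tested did. With the replicate block 13 of the 45 rose, as did 2234 of the 14544 genes tested. In the fit without the block, those with the smallest p were Myc, down from 85.9 ± 4.77 to 35.7 ± 6.22 CPM (SD, n = 3), Zfp36l2 (-0.81), Ctgf (0.70) and Btg2 (0.77), an antiproliferative gene. Of the AP-1 genes Atf3 rose, from 39.5 ± 3.85 to 60.6 ± 0.88 CPM (log2 0.62, edgeR adjusted p = 0.00831). With the replicate block 4 of the 8 did, against the same 2234 of all genes. Fosl2 had 0.36 (edgeR adjusted p = 0.0558). Of the 23 pathway genes 4 rose, Elk3 with the smallest p (1.22), and 2 fell, among them Mapk3, the gene of ERK1 (-0.42). Clone H7 alone left 1 rise and 2 falls among the 45. Over days 7 to 10 no gene of the 3 lists passed without the replicate block. Among the 45, those with the smallest p in that fit were Myc (-0.62), Bhlhe40 (0.63), Gadd45g (0.57) and Id1 (0.62). In the AP-1 and pathway lists they were Atf3 (0.50), Fosl1 (0.56), Elk3 (0.80) and Rps6ka1 (-0.28). Their edgeR adjusted p ran from 0.689 to 0.836. With the block 18 other immediate early genes rose and 11 fell, against 2466 and 2675 of all genes tested.

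Heat shock genes, which respond to handling of cells as immediate early genes can, were listed as well. Of 12 such genes 3 rose and 1 fell over days 4 to 7 of WAPL loss (9.46% and 5.73% of all genes tested). None passed over days 7 to 10 in the fit without the replicate block. In RAD21 RNA 2 rose and 1 fell (9.83% and 8.89% of all genes), and in PRO-seq 1 rose (Hspa8, log2 1.03) and 1 fell (Hspe1, -0.32), against 5.9% and 4.66%. Apart from the 3 rises these counts are near those of all genes. The part of handling in the results was not tested.

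Across the 14 RNA libraries, centred within each table, the 10 genes did not vary as 1 block: their 45 pairwise correlations of log2 CPM ran from -0.72 to 0.84, with a median of 0.31. Among 10420 other genes those most like Egr1 were Tcea1 (r = 0.986), Srsf10 (0.964), Fam60a (0.912), Zfp207 (0.911) and Fubp1 (0.907). Among those most like Ier3 were Creb3 (0.966), Krt7 (0.965), Cryab (0.965) and Lamb3 (0.964), of which Krt7 and Lamb3 are epithelial genes. These correlations describe libraries that share treatment, clone and depth.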

How the data were processed

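Files of 18 samples out of 94 entered the tests (14 libraries of poly(A) RNA and 4 of PRO-seq); the ChIP-seq, Hi-C and CHART samples were not used here. The authors deposited unscaled counts for each gene in 3 RNA tables. The PRO-seq values that the authors deposited are expected counts in steps of 0.5, and were rounded for testing. Per the submitters' processing notes TopHat2, Novoalign, Bowtie2, HOMER, DESeq and DESeq2 served, with builds mm9, hg19 and dm6, and no role or version is named. How reads were counted, over which part of a gene in PRO-seq, and with what use of strand is not given in the sources used here, so reads of overlapping or antisense genes cannot be told apart.

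Groups and clones came from titles and characteristics. The test was edgeR's quasi-likelihood F-test (version 4.0.16, R 4.3.3) after TMM scaling and filterByExpr at min.count 10, called at an adjusted p under 0.05. WAPL days 4 to 7 and the RAD21 fits held a clone term. The fits left residual degrees of freedom of 3 (WAPL days 4 to 7), 2 (days 7 to 10), 1 (each RAD21 comparison), 5 (window difference), 2 (assay difference) and 2 (DMSO days). SE is the log2 difference over the root of the F statistic. For WAPL days 4 to 7, libraries with the same number deviated together from the group means (r = 0.552, 0.573 and 0.669 for the 3 pairs, the last being clone H2), so the numbers were taken to pair them. This pairing entered the ratios of pairs and the replicate block, an alternative fit. The main fit held clone and treatment and no replicate block. Alternatives were RLE scaling, library totals, no filter, a floor of 50 on the mean count, limma-voom (limma 3.58.1), DESeq2 1.42.0, other clone and block terms, and leaving out each library. Each main fit was also run on counts simulated from its own means and dispersions, with planted log2 changes of 1 and 2. Such counts follow the model of the fit, so the run cannot show whether the model holds for these libraries or for smaller changes. Figures used matplotlib 3.10.9.

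The genes and lists were chosen with earlier results of these data known. Named genes are the 10 genes, up to 4 other immediate early, 2 AP-1 and 2 pathway genes of smallest p per comparison, and the 5 genes most correlated with Egr1 and with Ier3 (mean log2 CPM of at least 3), of which 1 is not reported here. Hspa8 and Hspe1, and the marker sums, were named after their values were seen.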

Additional observations from a re-analysis of the deposited data

Results flagged for a closer look

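Between PRO-seq at day 7 and RNA at day 10, the response to RAD21 degradation differed for 2 of the 10 genes by the test of that difference. For Egr3 the PRO-seq response minus the RNA response was log2 -1.05 (SE 0.135, edgeR adjusted p = 0.00108), with PRO-seq lower and RNA higher in each of the clones. For Nr4a1 it was -0.75 (SE 0.0976, edgeR adjusted p = 0.00112), again with opposite signs in the assays in each clone. Assay and day cannot be told apart.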

How the results depend on the processing

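Without the clone term WAPL days 4 to 7 had 1 of the 10 genes and 994 genes, RAD21 RNA 0 and 1, and PRO-seq 0 and 0. Clone H7 alone gave 1 and 360 for WAPL days 4 to 7. DESeq2 gave 44 genes for WAPL days 7 to 10, 2 of the 10 and 472 genes in RAD21 RNA, 4 and 514 in PRO-seq, 4 genes for the window difference, 142 for the assay difference, and 2 and 641 for the DMSO days. The replicate block gave 3993 genes for WAPL days 4 to 7, where it ended no call among the 10. In WAPL days 7 to 10 the 2 pairs share only a number in the labels, but deviated together (r = 0.828). There the block gave 5141 genes and 5 of the 10, with Ier3, Ier5, Nr4a1 and Dusp1 higher and Egr1 lower. It gave 5 genes for the window difference and, chosen after seeing the data, 3 of the 10 and 1609 genes for the DMSO days.

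With each library left out in turn, the 10 genes gave 1 to 4 calls in WAPL days 4 to 7 (341 to 4433 genes), 0 to 6 in the DMSO days (248 to 3101 genes), and 0 to 0 in RAD21 RNA (16 to 94 genes) and PRO-seq (0 to 0 genes). The assay difference gave 0 to 6 calls and 0 to 1001 genes, 0 in every fit that merged the clone terms of the assays and 1 to 6 (49 to 1001 genes) in the fits, added after seeing the data, that kept them. In WAPL days 7 to 10 it gave 27 to 143 genes. RAD21 fits with 3 libraries cannot hold the clone term, so clone differences enter the spread, and the lone sample is assumed to vary like the others. Signs turned in such fits for Ier2 in WAPL days 4 to 7 (log2 -0.077 to 0.21), and in days 7 to 10 for Egr2 (-0.15 to 0.020), Egr3 (-0.15 to 0.44), Ier2 (-0.24 to 0.24) and Klf10 (-0.13 to 0.25). In RAD21 RNA they turned for Egr1 (-0.34 to 0.023), Egr2 (-0.20 to 0.089), Ier2 (-0.23 to 0.091) and Zfp36 (-0.22 to 0.11), and in PRO-seq for Ier3 (-0.26 to 0.79), Nr4a1 (-0.88 to 0.061), Dusp1 (-0.60 to 0.14) and Zfp36 (-0.83 to 0.048). They turned in the window difference for Ier2 (-0.32 to 0.14), Zfp36 (-0.17 to 0.063; 0.063 with clone H7 only) and Klf10 (-0.35 to 0.051), in the assay difference for Ier3 (-0.42 to 0.31) and Dusp1 (-0.26 to 0.22), and in the DMSO days for Egr1 (-0.027 to 0.16), Egr2 (-0.014 to 0.10) and Egr3 (-0.36 to 0.25). Beyond fewer samples in these fits, the cause was not tested. Egr3 passed in WAPL days 4 to 7 without a count filter (adjusted p = 0.037).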

Other observations

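The RAD21 clones differed in these genes before any treatment effect. In PRO-seq at day 7 under DMSO, all 10 genes were higher in clone G9 than in clone C4, where 49.8% of the 16496 genes tested were. Nr4a1 had 220 CPM in G9 against 126 CPM in C4, Egr3 69.8 against 38.3 CPM, Zfp36 118 against 64.4 CPM, and Dusp1 185 against 116 CPM. With dTAG-13, 8 of the 10 were higher in G9 (49.4% of all genes), the exceptions being Egr2 and Ier2. In RNA at day 10 the order was mixed, with 6 of 10 higher in G9 under DMSO and 7 of 10 with dTAG-13. Each of these is 1 library against 1, so the difference between clones has no replicate check and clone cannot be told apart from library.

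In the WAPL line over days 4 to 7 under DMSO, the clone H2 library was above both H7 libraries for 7 of the 10 genes and below both for 3, where 40.1% and 40.4% of the 14544 genes tested were. With dTAG-13 the counts were 8 above and 2 below (33.1% and 35.2% of all genes). These counts were made after the values were seen and have no test.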
